A study of Mus musculus with 2 samples.

Results

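Conventional CD4 T cells are the CD4 T cells outside the regulatory lineage. Here they were the cells of 2 droplet libraries (10x Genomics, single cell) from 4T1 mammary tumours that held at least 2 UMIs of Cd3e, Cd3d and Cd3g together, at least 1 UMI of Cd4, and none of Foxp3, Cd8a, Cd8b1, Trdc or Epcam. A UMI is 1 distinct RNA molecule counted for a gene in a cell. The members were thus chosen by the measured UMIs of these genes, whose own values are given only as a description. The libraries held 14709 cells with 500 or more UMIs, 200 or more genes and no more than 20% of UMIs from mitochondria. Of these 284 met the rule, 217 of them in the K2-KO library and 67 in the control library.

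The K2-KO library came from tumours grown from 4T1 cells of genotype K2-KO treated with K2 sgRNA, and the control library from tumours of 4T1 cells labelled WT and given Ctrl sgRNA. 4T1 cells derive from a mammary carcinoma of a BALB/c mouse, and K2 stands for Kindlin-2, an integrin adaptor protein that Fermt2 encodes. In both groups the cells were placed in mammary fat pads, and the hosts were female BALB/c mice (BLB/c in the design text). Tumours of 150 mm3 were taken, digestion lasted 45 min, and sorting of live cells used the mCherry signal. The labels do not give the sorted fraction loaded, the age of the mice or the number of tumours in a library. With 1 library per group there was no test of any difference, and every interval below is an exact 95% interval that covers counting error only, not the spread between tumours. The series title gives breast cancer immune evasion as the subject.

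CD4 T cells recognise peptides presented on MHC class II molecules. Once activated they divide, leave the lymph node and differentiate into helper cells, known by their master transcription factors and cytokines: T helper 1 cells by T-bet and interferon gamma, T helper 2 cells by GATA3 and interleukins 4 and 13, T helper 17 cells by interleukin 17, and follicular helper cells by BCL6 and CXCR5. In tumours they license dendritic cells through CD40 ligand, supply cytokines to CD8 T cells, and can carry inhibitory receptors such as PD-1 after prolonged stimulation.

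The 2 libraries held no cell barcode in common among these 284 cells and 13 among all barcodes. The 217 K2-KO cells had a median of 6150 UMIs and 2230 genes, against 5244 UMIs and 2087 genes in the 67 control cells, and summed to 1646706 and 559859 UMIs. In tumour cells, taken as cells with Epcam and without Ptprc or CD3 UMIs, Fermt2 stood at 18.05 CPM (17.2 to 18.9) in K2-KO and 41.4 CPM (40.4 to 42.5) in control, CPM being UMIs per 1000000 UMIs summed over the cells. In the conventional CD4 T cells Fermt2 had 1 UMI in K2-KO and 62 in control, 98.4% of the control ones in 1 cell. Fermt3, the kindlin of blood cells, was at 87.4 CPM in K2-KO cells and 96.5 CPM in control cells (log2 ratio -0.14, -0.60 to 0.34).

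Some of the cells held many UMIs of another cell type's markers, and such cells gave a larger part of the UMIs in control than in K2-KO. Cells with at least 10 UMIs of 33 marker genes of B cells, macrophages, neutrophils, dendritic cells, tumour cells, fibroblasts and endothelium numbered 8 of 217 in K2-KO and 5 of 67 in control, and they held 7.64% and 33.5% of the UMIs of their library's conventional CD4 T cells. The largest, a control cell of 84597 UMIs, had 1627 UMIs of the fibroblast genes Col1a1, Col1a2, Col3a1 and Dcn and made up 15.1% of all control UMIs. Macrophage markers summed to 570 CPM in K2-KO and 2531 CPM in control, fibroblast markers to 9.11 and 2913 CPM, tumour cell markers to 52.8 and 42.9 CPM, and B cell markers to 1.21 and 0 CPM. These cells are called marker-rich below. Their definition was set after the data had been seen, and results that rest on them are given with and without them. A doublet caller marked 5 of the K2-KO and 2 of the control cells, all of them among the marker-rich ones.

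The defining markers were present. All 4 markers of conventional CD4 T cells (Cd3e, Cd4, Cd28 and Icos) and all 8 further T cell markers were found in both libraries. Outside the rule, the T cell receptor constant gene Trbc2 was at 823 CPM in K2-KO and 604 CPM in control, and at 872 and 864 CPM without the marker-rich cells. A UMI of Cd28, the costimulatory receptor, was found in 44.2% of K2-KO cells (37.5 to 51.1%) and 38.8% of control cells (27.1 to 51.5%) once each cell had been thinned to 1000 UMIs, and in 91.7% and 71.6% of unthinned cells. Thinning left out no cell in either library. In tumour cells, which should lack the gene, the thinned share was 0.0467% in K2-KO and 0 of 3350 cells in control, which allows a share of up to 0.0896%. Tumour cells were deeper, with medians of 40051 UMIs in K2-KO and 36417 in control before thinning. Of the NK cell markers Ncr1, Klrb1c, Klre1 and Klra8, 25 UMIs in 3 cells were found in K2-KO and 4 UMIs in 3 cells in control. Gamma-delta markers other than Trdc had 4 UMIs in K2-KO and 0 in control.

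The rule reads few molecules, so some members lie close to its limits. The median cell had 2 Cd4 UMIs in both libraries, and 92 of 217 K2-KO cells and 32 of 67 control cells had just 1. Just outside, 193 K2-KO and 91 control cells met every other condition with no Cd4 UMI, and 16 K2-KO and 6 control cells were left out by a single Foxp3 UMI. Ikzf2 and Il2ra, which regulatory T cells also express, had a UMI in 53 and 63 K2-KO cells and in 11 and 25 control cells. Of the Ikzf2-positive cells 47.2% also held an Il2ra UMI in K2-KO and 72.7% in control. How many members are regulatory T cells with no Foxp3 molecule captured was not tested.

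Conventional CD4 T cells took a larger share of the K2-KO library. They made up 3.12% of its cells (2.72 to 3.55%, 217 of 6962), against 0.865% of control cells (0.671 to 1.10%, 67 of 7747), a log2 ratio of 1.85 (1.45 to 2.27) or 3.60-fold. How much of each mCherry fraction was loaded is not stated and bears on that share, so shares within immune cells follow. Of cells with Ptprc and without Epcam UMIs they were 6.46% in K2-KO and 2.36% in control (log2 ratio 1.45, 1.05 to 1.87). Of all cells with at least 2 CD3 UMIs they were 20.8% of 1043 in K2-KO and 10.1% of 666 in control (1.05, 0.65 to 1.47). Median depth over those CD3 cells was 7859 UMIs in K2-KO and 7417 in control. When every CD3 cell was thinned to 1500 UMIs before the rule was read, the shares were 11.8% (71 of 602) and 7.18% (31 of 432), a log2 ratio of 0.72 (0.09 to 1.37).

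**Figure D1:**
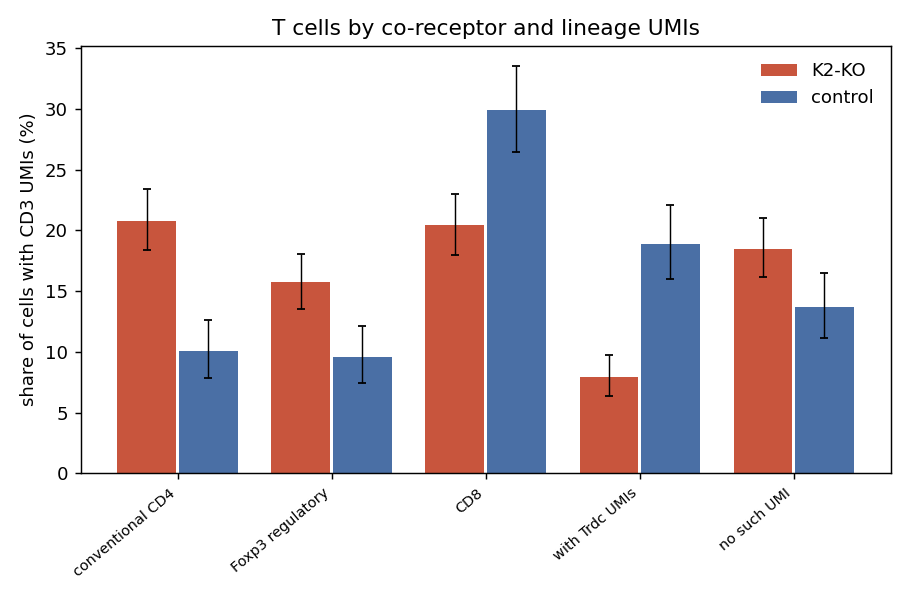
Shares of CD3-positive cells (%, vertical axis) by co-receptor and lineage UMIs, K2-KO (red) left of control (blue), with exact 95% binomial intervals; cells with Epcam UMIs or with UMIs of both Cd8 and Cd4 or Foxp3 are not drawn. Conventional CD4 T cells were 20.8% in K2-KO and 10.1% in control, and CD8 T cells 20.4% and 29.9%.

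Among the other CD3 cells the make-up differed too. Foxp3 regulatory T cells were 15.7% in K2-KO and 9.61% in control, cells with Cd8a or Cd8b1 UMIs 20.4% and 29.9%, and cells with Trdc UMIs 7.96% and 18.9%. The 217 conventional CD4 T cells of K2-KO stood beside 213 CD8 and 164 regulatory T cells, and the 67 of control beside 199 CD8 and 64 regulatory T cells. In a library of sorted cells more CD4 T cells and fewer other cells cannot be told apart from these shares.

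Across all genes, the comparison of K2-KO with control depended on the marker-rich cells. Of 7250 genes with at least 30 UMIs, 264 (3.64%) were at least 2-fold higher and 505 (6.97%) at least 2-fold lower in K2-KO. Without the marker-rich cells 295 genes were higher and 195 lower of 6493, with 144 and 78 in common with the first counts. Of the 10 genes ranked lowest by interval, Brinp3, Col12a1, Il11, Mmp3, Mfap5, Bgn, Tnc, Sparc, Rarres2 and Hmga2, at least 97.6% of the control UMIs of each sat in 1 cell, and for Tnc and Hmga2 that was 97.8% and 98.6%. Among them Mmp3 is a matrix protease and Tnc encodes the matrix protein tenascin-C. The median log2 ratio over all genes was -0.03 with and without the marker-rich cells. In what follows a gene is called higher or lower in K2-KO where it was at least 1.5-fold apart with an interval that leaves out 0, and the ratio without the marker-rich cells follows it. Counts over a gene list use 1.5-fold alone, as the shares of all genes do. Of 8426 genes with at least 20 UMIs, 12.7% were as much higher in K2-KO and 18.3% lower. Without the marker-rich cells these shares were 16.0% and 14.6%. Each list count below is to be read against them.

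Genes induced by interferon were higher in K2-KO, and their list had the highest median of the 23 lists measured, with all cells, without the marker-rich cells and as the mean over cells. Interferons act through transcription factors on genes that carry an interferon-stimulated response element, whose products block viral RNA and raise antigen processing. Of 43 measured members (at least 20 UMIs), 27 were at least 1.5-fold higher and 0 lower in K2-KO, with a median log2 ratio of 0.78. Over all 8426 genes with at least 20 UMIs 12.7% were as much higher and 18.3% lower. Without the marker-rich cells 17 members were higher and 1 lower (median 0.48), where 16.0% and 14.6% of all genes were. With every cell weighted equally 24 were higher and 0 lower (median 0.75), where 14.1% and 18.4% of all genes were.

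The letters of this element were found before many of these genes. RefSeq promoter sequences (GRCm38.p6, 250 bases before to 50 after the start) were at hand for 36 of the 46 genes of the list, and 22 of the 36 (61.1%) held GAAA, any 2 bases and GAAA again on either strand, a search in which overlapping matches were all counted. By promoter the share was 52.3% (23 of 44), against 3.44% of all 32851 promoters of the same length. Among measured members with a promoter, 12 of the 19 that were at least 1.5-fold higher held it, and 9 of the other 15. None of 22 cell cycle genes and none of 13 naive and recirculating genes with a promoter did. The promoters of Isg15, Ifit1 and Gbp2 each held the motif, in capitals in the sequences. It is a match of letters and not a measured binding site. These 3 genes were higher in K2-KO with all cells, without the marker-rich cells and as the mean over cells. Samhd1 and Irf1 were also higher with and without the marker-rich cells, but their promoters held 0 matches. Promoters of Ifit3, Slfn5, Gbp5 and Oas3 held matches. Isg15 lies on the minus strand, promoter chr4:156200769-156201068, with 3 overlapping matches. Ifit1 is on the plus strand, chr19:34640639-34640938, with 2 matches, and Gbp2 on the plus strand, chr3:142620413-142620712, with 1.
Isg15: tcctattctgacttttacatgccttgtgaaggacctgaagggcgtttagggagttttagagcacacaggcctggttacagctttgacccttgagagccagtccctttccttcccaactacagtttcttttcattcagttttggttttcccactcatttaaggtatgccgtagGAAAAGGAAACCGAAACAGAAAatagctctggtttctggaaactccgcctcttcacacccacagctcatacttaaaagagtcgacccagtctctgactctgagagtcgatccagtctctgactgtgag
Ifit1: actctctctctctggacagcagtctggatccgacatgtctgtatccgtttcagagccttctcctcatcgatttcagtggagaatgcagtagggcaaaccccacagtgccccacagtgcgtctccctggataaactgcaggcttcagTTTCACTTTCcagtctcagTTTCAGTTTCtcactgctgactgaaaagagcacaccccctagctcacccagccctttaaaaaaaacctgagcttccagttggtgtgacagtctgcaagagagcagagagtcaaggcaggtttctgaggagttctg
Gbp2: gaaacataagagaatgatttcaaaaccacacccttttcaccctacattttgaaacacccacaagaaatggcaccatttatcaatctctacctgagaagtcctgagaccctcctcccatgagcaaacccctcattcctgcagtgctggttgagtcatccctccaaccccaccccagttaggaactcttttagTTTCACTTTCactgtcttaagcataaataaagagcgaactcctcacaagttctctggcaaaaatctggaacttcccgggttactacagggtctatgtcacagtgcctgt

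Isg15, a ubiquitin-like protein that is attached to other proteins after interferon, was at 171 CPM (152 to 192) in K2-KO and 69.7 CPM (49.5 to 95.2) in control, and at 177 and 67.1 CPM without the marker-rich cells. Its log2 ratio was 1.30 (0.81 to 1.82), and 1.40 without them. At 1000 UMIs per cell 17.5% of K2-KO cells and 4.48% of control cells held an Isg15 UMI, but tumour cells held one in 17.2% and 10.2%, so no background level can be read from them. Ifit1, which binds viral RNA, was at 79.6 CPM in K2-KO and 21.4 CPM in control (1.89, 1.04 to 2.88; 1.5 without). Ifit3 had 25 UMIs in K2-KO and 1 in control (3.09, 0.48 to 8.45; 2.61 without). Oas3, which senses double-stranded RNA, had 43 UMIs in K2-KO and 3 in control (2.28, 0.64 to 4.62; 1.71 without).

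The GTPases of the guanylate-binding and immunity-related families, induced above all by interferon gamma, followed the same direction. Tumour cells held these RNAs too. At a fixed depth an Iigp1 UMI was in 11.5% of K2-KO and 4.48% of control conventional CD4 T cells. In tumour cells the shares were 23.3% and 12.2%. Gbp2 was in 12.9% and 2.99%, against 18.5% and 9.13% of tumour cells. Ifi47 was in 11.1% and 1.49%, against 10% and 5.64%. Gbp5 was in 7.37% and 2.99%, against 1.87% and 0.776%. What tumour RNA adds to the conventional CD4 T cell ratios below was not tested. Iigp1 was at 242 CPM (219 to 267) in K2-KO and 58.9 CPM (40.6 to 82.8) in control, a log2 ratio of 2.04 (1.52 to 2.59) with and 2.06 without the marker-rich cells, with 14.8% of its K2-KO and 39.4% of its control UMIs in 1 cell. Gbp5 was at 103 CPM in K2-KO and 30.4 CPM in control (1.77, 1.04 to 2.58; 1.29 without). Gbp2 was at 129.96 CPM in K2-KO and 55.4 CPM in control (1.23, 0.68 to 1.82; 0.81 without), though at -0.046 when every cell with 2 or more UMIs of other cell types' markers was removed. Ifi47 was at 136 CPM in K2-KO and 64.3 CPM in control (1.08, 0.57 to 1.63; 0.84 without).

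Genes of interferon signalling and of viral restriction were higher as well. Irf1, a transcription factor that interferon induces, was at 320.0 CPM in K2-KO and 175 CPM in control (0.87, 0.56 to 1.20; 0.60 without the marker-rich cells). Samhd1, which depletes nucleotides that viruses need, was at 604 CPM (567 to 642) in K2-KO and 264 CPM (223 to 311) in control (1.19, 0.94 to 1.45; 0.80 without). Nlrc5, the activator of class I genes, was at 238 CPM in K2-KO and 130.4 CPM in control (0.87, 0.50 to 1.25; 0.60 without). Ifi27l2a, the member with the most UMIs, was at 2228 CPM in K2-KO and 1324 CPM in control (0.75), but at 0.33 (0.21 to 0.45) without the marker-rich cells, under 1.5-fold. The immunoproteasome gene Psmb8 ran the other way within 1.5-fold, at 435 CPM in K2-KO and 489 CPM in control (-0.17, -0.37 to 0.04). Class I genes themselves ran from level to higher. Of 20 measured genes of class I and peptide processing, 4 were at least 1.5-fold higher and 0 lower (median 0.33), but 1 and 1 without the marker-rich cells (0.12). The higher ones were 20% with all cells, against 12.7% of all genes. H2-T23, a non-classical class I gene, was at 193 CPM in K2-KO and 107 CPM in control (0.85, 0.45 to 1.27; 0.49 without). B2m, the shared light chain, was at 2120.0 CPM in K2-KO and 1874 CPM in control (0.18). The heavy chain gene H2-D1 was at 3096 CPM in K2-KO and 2792 CPM in control (0.15).

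**Figure D2:**
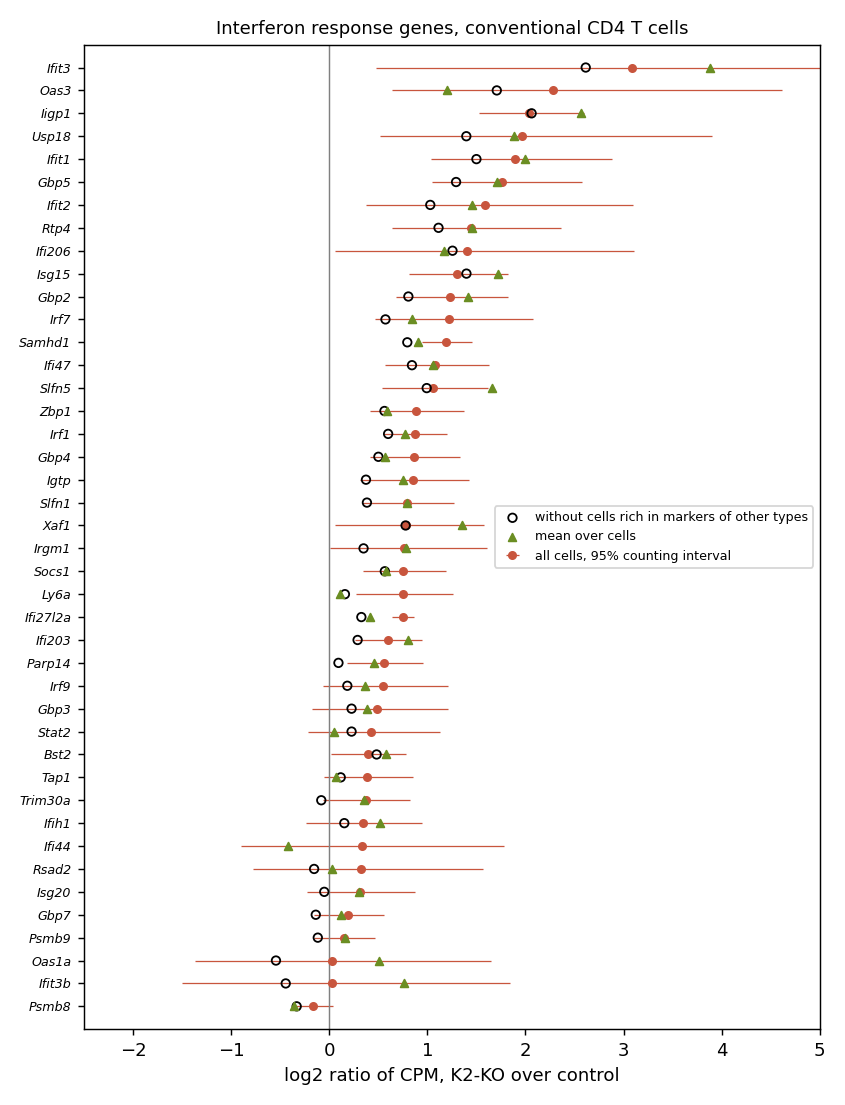
Log2 ratio of CPM, K2-KO over control (horizontal axis), of 42 of the 43 measured interferon response genes: all cells (red, with exact 95% counting intervals), without the marker-rich cells (open circles) and as the mean over cells (triangles). All but Psmb8 lay above 0 with all cells, several returned towards 0 without the marker-rich cells, and the interval of Ifit3 runs past the axis to 8.45.

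RNA of the interferon list as a whole was found in most cells of both libraries. At 1000 UMIs per cell the median cell had 6 UMIs of the list in K2-KO and 4 in control, the middle 50% of cells ran from 3 to 10 in K2-KO and from 2 to 7.5 in control, and the highest cell had 50 in K2-KO and 26 in control. Only 5 of 217 K2-KO cells and 2 of 67 control cells had none. Ifi27l2a, the member with the most UMIs, was found at that depth in 65.9% of K2-KO and 64.2% of control cells. Isg15 was found in 17.5% and 4.48%. How many cells carried the difference between the libraries was not tested. The ranges of the groups overlapped over most of their length. Cells with Isg15 more often also held Ifit1 (33.3% of 93 such K2-KO cells, 30.8% of 13 such control cells) than cells without it (9.68% in K2-KO, 9.26% in control). The positive cells were deeper, with medians of 7768 and 5622.5 UMIs with and without Isg15 in K2-KO.

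**Figure D3:**
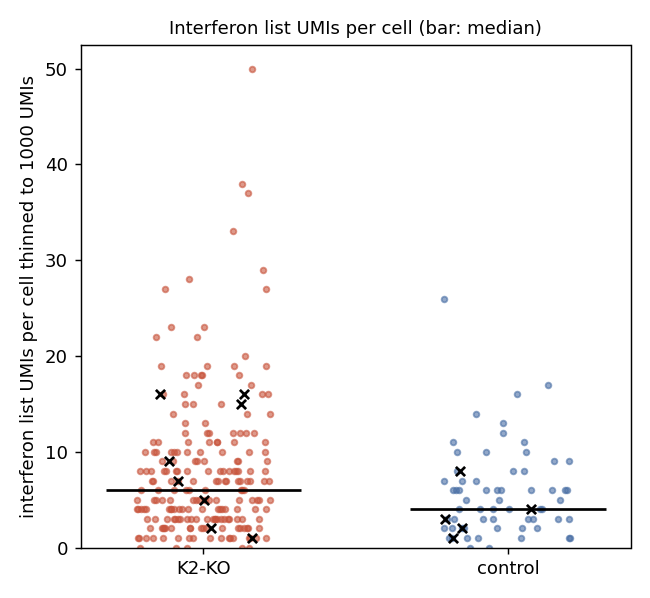
UMIs of the interferon response list in each conventional CD4 T cell thinned to 1000 UMIs (vertical axis), K2-KO left of control; 1 point is 1 cell, crosses mark the marker-rich cells and bars the medians, 6 in K2-KO and 4 in control. The highest K2-KO cell stood at 50 and the highest control cell at 26.

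With all cells, the same list differed less in the other T cells of these libraries. Its median was 0.78 in conventional CD4 T cells (27 of 43 at least 1.5-fold higher, 0 lower), 0.38 in CD8 T cells (15 of 44 higher, 2 lower) and 0.02 in Foxp3 regulatory T cells (5 of 43 higher, 2 lower). Without the marker-rich cells it was 0.48 in conventional CD4 T cells (17 higher, 1 lower), nearer the CD8 value. Such cells were not set aside in the other groups, and no shares of all genes stand beside their counts. Gbp5 was lower in K2-KO regulatory T cells, at 237 and 330.2 CPM (-0.48, -0.75 to -0.20), which is less than 1.5-fold, and Iigp1 at 237 and 233 CPM there was level. In K2-KO, Iigp1 was at 242 CPM in conventional and 237 CPM in regulatory T cells, and Gbp5 at 103 and 237 CPM. In control, Iigp1 was at 58.9 CPM in conventional and 233 CPM in regulatory T cells, and Gbp5 at 30.4 and 330.2 CPM. Conventional cells thus stood below regulatory cells for Gbp5 in both libraries and for Iigp1 in control. With 1 library a group the difference between the cell types was not tested.

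S1pr1 and Tcf7, genes of T cells that recirculate between blood and lymph node, were higher in K2-KO, and Cxcr6 and Pdcd1 were lower, while most other genes of the recirculation and tissue residency lists were within 1.5-fold. Of 14 measured members of the naive and recirculating list, 3 were at least 1.5-fold higher (21.4%, against 12.7% of all genes) and 0 lower (median 0.42; 5 higher and 0 lower, median 0.30, without the marker-rich cells). S1pr1, the receptor by which T cells leave tissue, was at 283 CPM (258 to 310) in K2-KO and 100.03 CPM (75.6 to 130) in control, a log2 ratio of 1.5 (1.10 to 1.93), or 1.06 without the marker-rich cells. Tcf7, a transcription factor of naive and memory T cells, was at 176 CPM in K2-KO and 78.6 CPM in control (1.16, 0.70 to 1.66; 0.79 without). Klf2, which drives S1pr1, was at 754 CPM in K2-KO and 504 CPM in control (0.58, just under 1.5-fold; 0.37 without). Il7r, Lef1, Satb1 and Ccr7 were within 1.5-fold, with ratios of 0.20, 0.10, 0.13 and -0.01. S1pr1 and Tcf7 were thus among the 3 higher members.

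At a fixed depth the shares of cells ran the same way. An S1pr1 UMI was found in 26.3% of K2-KO cells (20.5 to 32.7%) and 16.4% of control cells (8.49 to 27.5%), and a Tcf7 UMI in 19.8% (14.7 to 25.7%) and 8.96% (3.36 to 18.5%). Tumour cells at the same depth gave 0.0467% and 0% for S1pr1 and 0.234% and 0.149% for Tcf7. Cxcr4, the receptor for CXCL12, was at 209 CPM in K2-KO and 98.2 CPM in control (1.09, 0.67 to 1.53; 0.72 without), and Itgb7, an integrin chain of gut and lymphoid homing, at 163 and 82.2 CPM (0.99, 0.53 to 1.47; 0.63 without). Gpr183, a receptor for oxysterols, was level at 474 CPM in K2-KO and 463 CPM in control.

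Cxcr6 and Pdcd1 stood on the other side. Cxcr6, the receptor for CXCL16 and a marker of tissue-resident T cells, was at 123 CPM (106 to 141) in K2-KO and 302 CPM (258 to 351) in control, a log2 ratio of -1.30 (-1.60 to -1.0) with and -1.78 (-2.09 to -1.47) without the marker-rich cells. Its UMIs were found in 8.76% of K2-KO cells (5.35 to 13.3%) and 22.4% of control cells (13.1 to 34.2%) at a fixed depth, and in 0 of 2140 K2-KO and 0 of 3350 control tumour cells, which allows up to 0.14% and 0.0896%. Pdcd1, which encodes the inhibitory receptor PD-1, was at 95.9 CPM (81.6 to 112) in K2-KO and 243 CPM (204 to 287) in control (-1.34, -1.68 to -1.0; -1.81 without), with a UMI in 6.45% (3.57 to 10.6%) and 23.9% (14.3 to 35.9%) of cells, against 0% and 0.119% of tumour cells. Both differences were larger without the marker-rich cells.

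The tissue residency list ran both ways, with 2 of its 13 measured genes at least 1.5-fold higher, 3 lower and a median of 0.03. These were 15.4% and 23.1%, near the 12.7% and 18.3% of all genes. Beside Cxcr6 the lower ones were Itgae and Litaf. Itgae, the integrin chain that binds epithelial E-cadherin, had 13 UMIs in 8 K2-KO cells and 19 UMIs in 7 control cells (-2.10, -3.24 to -1.01; -2.5 without). Litaf was at 123 CPM in K2-KO and 271 CPM in control (-1.14, -1.45 to -0.83; -0.87 without). Itgb2, the shared chain of the leukocyte integrins, was at 85.0 CPM in K2-KO and 141 CPM in control (-0.73, -1.14 to -0.31; -0.98 without). On the integrin and adhesion list 5 of 24 were at least 1.5-fold apart in each direction (0.01), or 20.8% each. Of the inhibitory receptor list Pdcd1 was 1 of 2 lower members, 1 of 12 was higher and the median was 0.05. Ctla4, another inhibitory receptor, was at 453 CPM in K2-KO and 373 CPM in control (0.28, but -0.22 without the marker-rich cells). Skap1, an adaptor that links the T cell receptor to integrins, was at 1418 CPM in K2-KO and 1016 CPM in control, and its ratio of 0.48 became 0.09 without them.

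**Figure D4:**
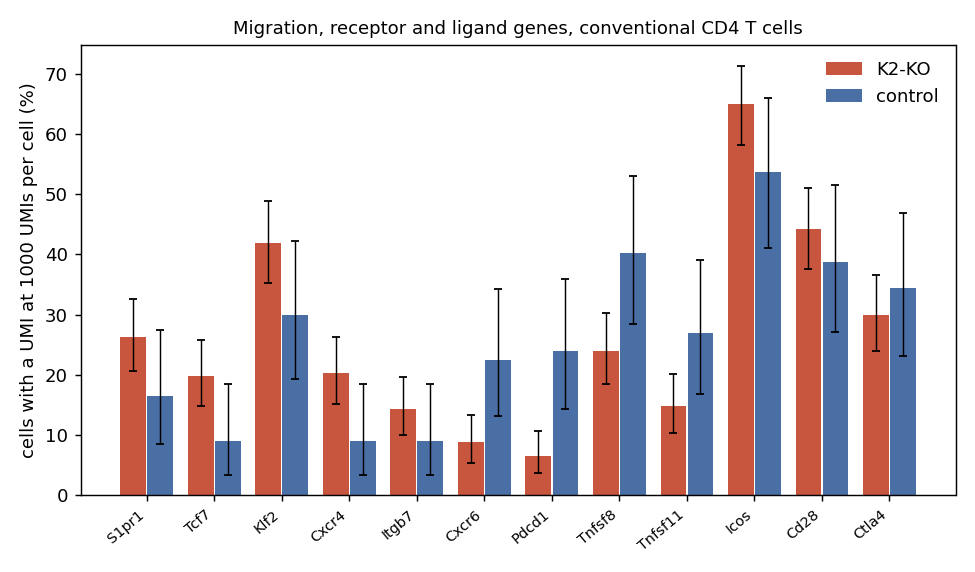
Shares of conventional CD4 T cells with at least 1 UMI of a gene after thinning each cell to 1000 UMIs (%, vertical axis), K2-KO (red) left of control (blue), with exact 95% binomial intervals. S1pr1, Tcf7, Klf2, Cxcr4 and Itgb7 were found in more K2-KO cells, and Cxcr6, Pdcd1, Tnfsf8 and Tnfsf11 in more control cells. For Pdcd1 the interval ended at 10.6% in K2-KO and began at 14.3% in control, while those of S1pr1 overlapped.

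Within each library some of these genes were found together in cells and some apart. Cells with an S1pr1 UMI held Cxcr6 in 19.7% of cases in K2-KO and 28.0% in control, and cells without S1pr1 in 48.8% and 59.5%, although the cells without S1pr1 were deeper (medians of 5980 and 7650 UMIs with and without S1pr1 in K2-KO, and 5011 and 5760 in control). Cells with a Pdcd1 UMI held Cxcr6 in 39.6% of cases in K2-KO and 76.9% in control, and cells without it in 27.4% and 29.3%. Median depths with and without Pdcd1 were 6189 and 6051.5 UMIs in K2-KO, and 6168 and 4774 in control. Klf2 was found in 89.1% of S1pr1-positive K2-KO cells and 61.2% of the others, and in 84.0% and 57.1% in control. Pdcd1 was in 24.0% of Tcf7-positive and 25% of Tcf7-negative K2-KO cells, which is level, and in 18.5% and 52.5% in control. These shares are descriptions of single cells of 1 library each.

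Helper lineage genes gave no single type. Tbx21, the gene of T-bet, was at 80.2 CPM in K2-KO and 76.8 CPM in control (0.06, -0.44 to 0.59), and Bcl6 at 66.2 and 55.4 CPM (0.26, -0.33 to 0.88). Ifng, the main cytokine of T helper 1 cells, had 214 UMIs in 42 K2-KO cells and 89 UMIs in 20 control cells, a log2 ratio of -0.29 (-0.65 to 0.08), or -0.75 (-1.12 to -0.38) without the marker-rich cells. The T helper 1 list had a median of -0.05 (2 of 17 higher, 1 lower), and -0.31 (1 higher, 6 lower) without the marker-rich cells. Ly6c2, one of the higher members, had 149 UMIs in 22 K2-KO cells and 16 UMIs in 3 control cells (1.66, 0.92 to 2.51; 2.16 without). Tbx21-positive cells held Ifng in 39.3% of cases in K2-KO and 70.6% in control, and Tbx21-negative cells in 12.4% and 16%. The positive cells were deeper, with medians of 6743 and 6036 UMIs with and without Tbx21 in K2-KO, and 6716 and 5125 in control. Stat4, which transmits interleukin 12, was at 933 CPM in K2-KO and 966 CPM in control. Of 9 measured T helper 17 genes 1 was higher and 1 lower (median -0.24), and of 11 follicular helper genes 1 was higher and 2 lower (0.11). Some had few UMIs: Il17a had 2 UMIs in K2-KO and 0 in control, Il21 1 and 1, and Cxcr5 5 and 0. With so few cells an absence in control is not distinguishable from a low level.

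Gata3 and the type 2 cytokine genes Il13 and Il4 were higher in K2-KO by summed UMIs, the cytokine genes in few cells. Before thinning, a Gata3 UMI was found in 135 of 217 K2-KO cells and 34 of 67 control cells. Gata3 was at 258 CPM (234 to 284) in K2-KO and 116 CPM (89.6 to 148) in control (1.15, 0.77 to 1.55; 0.78 without the marker-rich cells), but its share of cells at a fixed depth, 15.7% in K2-KO and 19.4% in control, gives no such order. Il13 had 686 UMIs in 12 K2-KO cells, 44.0% of them in 1 cell, and 41 UMIs in 2 control cells (2.51, 2.05 to 3.0; 3.39 without). Il4 had 59 UMIs in 14 K2-KO cells, 50.8% of them in 1, and 4 UMIs in 3 control cells (2.33, 0.89 to 4.25; 1.75 without). Of the 12 Il13-positive K2-KO cells 11 held Gata3 and 6 held Il1rl1, the interleukin 33 receptor, but their median depth was 18418 UMIs against 6035 in the rest. Il1rl1 itself was lower in K2-KO, at 121 and 298 CPM (-1.30, -1.61 to -1.0; -0.48 without), with 53.3% of the control UMIs in 1 cell. That ratio turned to 0.23 in cells with at least 2 Cd4 UMIs, to 0.24 when cells with 2 or more UMIs of other cell types' markers were removed, and to 0.43 when Pecam1 was not counted among those markers. Epas1, also on the T helper 2 list, had 94 UMIs in 35 K2-KO cells and 63 UMIs in 24 control cells (-0.98, -1.45 to -0.50; -1.44 without), and Areg, a growth factor, 78 UMIs in 9 K2-KO cells and 49 in 9 control cells (-0.89, -1.42 to -0.34; -1.62 without, but 2.54 in cells with no Ikzf2 or Il2ra UMI). The list as a whole had 3 of 10 members higher and 3 lower (0.14).

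Of the ranked genes highest in K2-KO, most were secreted factors concentrated in few cells. Besides Iigp1 and Il13 the 10 were Ccl1, G0s2, Il2, Il22, Il3, Kcnc2, Tnfrsf19 and Xcl1. Il2, the growth factor of T cells, had 204 UMIs in 21 K2-KO cells, 53.9% of them in 1, and 5 UMIs in 4 control cells (3.79, 2.55 to 5.43; 3.32 without the marker-rich cells). Ccl1, a chemokine for CCR8, had 939 UMIs in 10 K2-KO cells and 34 UMIs in 8 control cells (3.23, 2.74 to 3.77; 3.20 without). That ratio turned to -4.74 when the cells with 2 or more UMIs of other cell types' markers, Pecam1 aside, were removed, so the value rests on a handful of cells. Il3 had 69 UMIs in 4 K2-KO cells and 1 UMI in control (4.55, 2.03 to 9.88; 4.08 without), and Xcl1, which attracts dendritic cells, 78 UMIs in 4 K2-KO cells, 69.2% of them in 1, and 3 UMIs in 2 control cells (3.14, 1.54 to 5.45; 2.67 without). Il22 had 47 UMIs in 5 K2-KO cells (40 UMIs without the marker-rich cells) and 0 in control, at least 5.33-fold higher against 3 counts over the control cells. All 4 Il3-positive K2-KO cells also held Il13, and none of the 5 Il22-positive cells did. Tnfrsf19, a receptor of the tumour necrosis factor family, was the most widely spread, with 139 UMIs in 33 K2-KO cells and 5 UMIs in 5 control cells (3.24, 1.98 to 4.89; 3.09 without).

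Ligands of the tumour necrosis factor family differed in both directions. Tnfsf8, the ligand of CD30, was at 646 CPM (608 to 686) in K2-KO and 1098 CPM (1013 to 1189) in control (-0.77, -0.91 to -0.62; -0.89 without the marker-rich cells). Tnfsf11, the gene of RANKL, was at 414 CPM (383 to 446) in K2-KO and 654 CPM (588 to 724) in control (-0.66, -0.85 to -0.47; -0.98 without). Their shares at a fixed depth were 24.0% in K2-KO and 40.3% in control for Tnfsf8, and 14.7% and 26.9% for Tnfsf11, with at most 0.0467% in tumour cells. The genes were found together: Tnfsf11 was in 43.0% of Tnfsf8-positive and 25% of Tnfsf8-negative K2-KO cells, and in 69.4% and 12.9% in control. The Tnfsf8-positive cells were deeper, with medians of 6502 and 5703 UMIs with and without Tnfsf8 in K2-KO, and 5760 and 4774 in control. Cd40lg, the ligand by which helper T cells activate dendritic cells and B cells, ran the other way at 194 CPM (173 to 216) in K2-KO and 104 CPM (78.7 to 134) in control (0.90, 0.50 to 1.33), though 0.47 (0.06 to 0.92) without the marker-rich cells, under 1.5-fold. A Cd40lg UMI was found in 20.7% of K2-KO cells (15.5 to 26.7%) and 10.4% of control cells (4.30 to 20.3%), and in 0% of tumour cells. Csf2, the growth factor of granulocytes and macrophages, was within 1.5-fold over all cells at 209 CPM in K2-KO and 277 CPM in control (-0.41), but lower without the marker-rich cells (-0.87, -1.15 to -0.59). Ltb was level at 510.1 CPM in K2-KO and 475 CPM in control. Of 21 T cell cytokine genes 9 were at least 1.5-fold higher and 7 lower (median 0.10), 8 and 6 of them with an interval that leaves out 0, and 7 and 8 without the marker-rich cells (-0.35). With all cells these were 42.9% and 33.3%, against 12.7% and 18.3% of all genes.

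Costimulatory and T cell receptor genes differed little once the marker-rich cells were set aside. Of 13 costimulatory receptors, 3 were higher and 0 lower (median 0.37), but 1 and 1 without those cells (0.02). The higher ones were 23.1% with all cells, against 12.7% of all genes. Icos was at 1069 CPM in K2-KO and 748 CPM in control (0.51), and its ratio was 0.02 without them. The T cell receptor signalling list (20 measured) had a median of 0.27 with and -0.09 without them. Tnfrsf18, Tnfrsf4 and Tnfrsf9 were at 318, 350 and 448 CPM in K2-KO and 339, 293 and 386 CPM in control. Cd44, raised after activation, was at 552 CPM in K2-KO and 600.2 CPM in control (-0.12, -0.30 to 0.06).

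Cytotoxic genes were sparse and split. Of their list 23.5% were higher and 41.2% lower with all cells, against 12.7% and 18.3% of all genes. Among the 17 measured genes 4 stood at least 1.5-fold higher in K2-KO and 7 lower (median -0.27; 4 and 6, -0.26, without the marker-rich cells). Gzmb, granzyme B, had 75 UMIs in 16 K2-KO cells and 5 UMIs in 2 control cells (2.35, 1.06 to 4.01; 1.88 without), but a ratio of -0.14 in cells with no Ikzf2 or Il2ra UMI. Gzma had 42 UMIs in 10 K2-KO cells and 2 UMIs in 2 control cells (2.84, 0.89 to 5.93; 2.36 without), but -0.94 when cells with 2 or more UMIs of other cell types' markers were removed. Gzmc had 3 UMIs in 2 K2-KO cells and 21 UMIs in 3 control cells (-4.36, -6.75 to -2.62; -4.84 without). The NK receptor genes Klrc1 (13 UMIs in K2-KO, 21 in control) and Klrd1 (80 and 50 UMIs) had ratios of -2.25 (-3.37 to -1.18; -2.72 without) and -0.88 (-1.41 to -0.34; -1.42 without), and the lysosomal protease Ctsw, at 71.7 CPM in K2-KO and 116 CPM in control, -0.70 (-1.14 to -0.24; -1.17 without). NK cell markers in these cells summed to 15.2 CPM in K2-KO and 7.14 CPM in control, and their part in these genes was not tested.

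The cell cycle list and the hypoxia list had more lower than higher members in K2-KO with all cells, and the first did not stay so. On the cell cycle list 1 of 25 members was at least 1.5-fold higher and 12 lower (median -0.40), 10 of the 12 with an interval that leaves out 0, but 9 higher and 1 lower without the marker-rich cells (0.23). With all cells these were 4% and 48%, against 12.7% and 18.3% of all genes. Top2a was at 78.3 CPM in K2-KO and 143 CPM in control (-0.87, -1.28 to -0.45), with 63.8% of its control UMIs in 1 cell, and its ratio was 0.23 without those cells. Mki67, another proliferation gene, had a ratio of -0.25 with and 1.31 (0.32 to 2.48) without them. Of the immediate early and dissociation list 0 of 25 were at least 1.5-fold higher and 4 lower (median -0.06), and 2 and 2 without those cells (0.07). Egr1, an immediate early gene outside that list, and Ier3, 1 of the 4, had 55.0% and 38.7% of their control UMIs in 1 cell; their ratios of -2.29 and -2.82 became -0.55 and -0.97. Of the hypoxia and glycolysis list 0 of 25 were at least 1.5-fold higher and 7 lower (median -0.35; 1 and 4, -0.13, without), 5 of the 7 with an interval that leaves out 0. The lower members were 28% of that list with all cells, against 18.3% of all genes. Without the marker-rich cells they were 16%, near the 14.6% of all genes. Ndrg1, induced at low oxygen, was at 34.6 CPM in K2-KO and 109 CPM in control (-1.65, -2.20 to -1.11; -1.40 without), and the mitophagy receptor gene Bnip3 had 10 UMIs in K2-KO and 12 in control (-1.82, -3.19 to -0.48; -2.03 without).

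**Figure D5:**
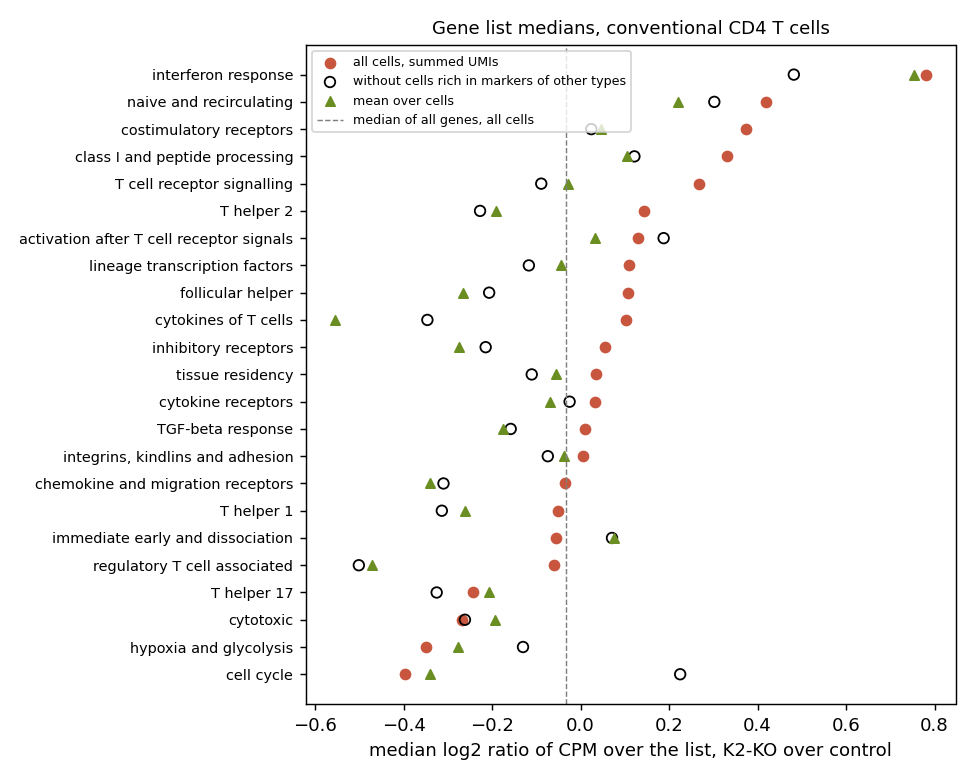
Median log2 ratio of CPM, K2-KO over control (horizontal axis), of the 23 gene lists in conventional CD4 T cells: all cells (red), without the marker-rich cells (open circles) and as the mean over cells (triangles), with the median of all genes dashed at -0.03. The interferon list lay highest in all 3 forms, at 0.78, 0.48 and 0.75, while the cell cycle list moved from one side of 0 to the other.

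Set beside Foxp3 regulatory T cells or CD8 T cells of the same library, the conventional CD4 T cells differed in some genes. These are given as a description because the rule divided the cells. Against regulatory T cells, Tnfsf8 (646 and 52.4 CPM in K2-KO; 1098 and 15.1 CPM in control), Tnfsf11 (414 and 17.7; 654 and 38.8 CPM), the survival gene Bcl2 (707 and 59.3; 513 and 19.4 CPM) and Tcf7 (176 and 20.5; 78.6 and 8.63 CPM) were among the 10 highest in both libraries, as were St8sia1, Mctp2, Lrrk2, Gpm6b and Tnc. The last rests on 1 marker-rich control cell. Bcl2 was as high in CD8 T cells, at 720 CPM in K2-KO and 534 CPM in control. The 10 lowest against regulatory T cells were Itgb8, Lrrc32, Itgae, Areg, Klrg1, Gzmb, Ston2, Cep85l, Rln3 and Gm28112. Itgb8, an integrin chain that activates TGF-beta, was at 6.07 CPM in conventional and 299.9 CPM in regulatory T cells in K2-KO, and at 17.9 and 464 CPM in control, and Lrrc32, which displays latent TGF-beta, at 7.29 and 101 CPM in K2-KO and 1.79 and 106 CPM in control.

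Against CD8 T cells the highest in both libraries were Tnfsf8, Cd40lg, Il1rl1, Csf2, Tnfrsf19, Scin, Lrrk2, Penk, Lgals7 and Esm1. Cd40lg was at 194 CPM in conventional CD4 and 7.68 CPM in CD8 T cells in K2-KO, and at 104 and 3.31 CPM in control. Csf2 was at 209 and 14.9 CPM in K2-KO and 277 and 1.65 CPM in control. Nkg7 and Gzmb, genes of killing, were among the lowest 10, with Nkg7 at 122 and 1196 CPM in K2-KO and 113 and 1452 CPM in control. The other lowest genes were Zbtb32, Bend4, Dapk2, Smyd1, Atp2b2, Setbp1, Klrc2 and Crtam.

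The direction of the migration genes was shared in part by the other T cells. S1pr1 was higher in K2-KO in regulatory T cells (101 and 49.6 CPM; 1.03, 0.40 to 1.73) and in CD8 T cells (61.0 and 28.5 CPM; 1.10, 0.67 to 1.53). Cxcr6 was lower in regulatory T cells (33.6 and 71.2 CPM; -1.08, -1.72 to -0.42), while in CD8 T cells it was within 1.5-fold (268 and 306 CPM; -0.19, -0.35 to -0.04). Pdcd1 was within 1.5-fold in both, at 88.4 CPM in K2-KO and 75.5 CPM in control regulatory T cells (0.23, -0.31 to 0.80) and at 372 and 429.8 CPM in CD8 T cells (-0.21, -0.34 to -0.08). These are values side by side, and the differences between cell types were not tested.

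T cell receptor beta variable genes were read in few cells. A Trbv UMI was found in 32 of 217 K2-KO cells (14.7%) and 9 of 67 control cells (13.4%), over 11 and 5 of the 35 Trbv genes in the matrix. Trbv20 was the most used in K2-KO, in 8 of the 32 cells (25%, 11.5 to 43.4%). Reads of a library made from transcript ends do not give clones.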

How the data were processed

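Single-cell RNA was measured in 1 K2-KO and 1 control library. The authors deposited UMI counts (whole numbers, 32285 genes by 15288 barcodes); per the submitters' processing notes Cell Ranger 2.1.1 and mm10 were used, while per the file headers the version was 6.0.1, so the version is uncertain. The deposited barcodes carry a suffix, an identifier and no measurement; suffix 1 was taken as the control and 2 as the K2-KO library from the numbered library names alone. Cell calling preceded deposit. Depth per cell is given in the text.

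Members were taken by the stated rule without doublet removal, with Scrublet (scanpy 1.11.5) as an alternative. UMIs were summed over the cells of a library, as counts, and scaled to CPM of the cells' total; ratios are K2-KO over control. Intervals are exact: Poisson for CPM, Clopper-Pearson for shares, conditional binomial for ratios, at 95%. Where a single cell supplies most UMIs of a gene they understate the error. A fold against 0 counts is a bound against 3 counts. Immunoglobulin, haemoglobin, mitochondrial, ribosomal protein, Xist and Y-linked genes were neither counted nor named, and T cell receptor genes were not ranked.

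The members and all 23 gene lists were chosen with earlier results of these data known. By rule the text may name the 10 genes ranked highest and lowest by interval bound (30 UMIs, 2-fold, markers of other cell types left out), of each list the 3 members with most UMIs and those 1.5-fold apart whose interval leaves out 0, some lineage genes, and in the comparison with other T cells the 10 highest and lowest. Not all are named: those given were picked after their values were seen, as were 5 outside the rule (Csf2 for its K2-KO ratio, Il2ra, Lef1, Mki67, Tnfrsf18), and further list members given as values. Some genes that the rule names are not reported here. Of 46 interferon genes 45 were matched by symbol. Simulated Poisson counts with 2-fold changes gave intervals that left out 0 for 74% of 200 changed genes and 3.43% of unchanged ones (7251 genes, K2-KO over control), which checks the calculation only. The tools were scipy 1.17.1, numpy 2.4.6, matplotlib 3.10.9, pandas 2.3.3 and Python 3.11.15.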

Additional observations from a re-analysis of the deposited data

Results flagged for a closer look

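Several genes differed between the libraries in one direction in conventional CD4 T cells and in the other direction in another T cell group. Each did so by at least 1.5-fold with an interval that leaves out 0, in conventional CD4 T cells also without the marker-rich cells. In the other groups cells rich in such markers were not set aside. The macrophage gene Apoe was at 994 CPM in K2-KO and 75.5 CPM in control regulatory T cells. None of these differences between cell types was tested, and each rests on 1 library per group. Values are log2 ratios, K2-KO over control.

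Tnfsf8 was at -0.77 in conventional CD4 T cells, 1.80 in regulatory T cells and 1.49 in CD8 T cells. Gzmb was at 2.35 in conventional CD4 T cells, -0.70 in regulatory and -0.82 in CD8 T cells. Gzma (2.84 and -3.78), Xcl1 (3.14 and -1.48) and Nrp1 (-0.77 and 1.15) ran opposite ways in conventional CD4 and CD8 T cells. Gata3 (1.15 and -0.59), Ly6c2 (1.66 and -0.99), Bnip3 (-1.82 and 1.96) and Ier3 (-2.82 and 1.79) ran opposite ways in conventional CD4 and regulatory T cells. Gata3 RNA was also found in tumour cells, at the shares given above. Gzma, Gzmb, Xcl1, Ly6c2 and Bnip3 were found in no more than 22 conventional CD4 T cells of either library. In conventional CD4 T cells the Gzmb ratio changed sign in cells with no Ikzf2 or Il2ra UMI. The Gzma ratio changed sign when cells with 2 or more UMIs of other cell types' markers were removed. In regulatory T cells Bnip3 had 59 UMIs in K2-KO and 4 in control. The 64 control regulatory T cells summed to 463338 UMIs, and Tnfsf8 was low in them, at the CPM given above.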

How the results depend on the processing

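No paired analysis was possible because each group has 1 library and no result comes from a test. The settings without marker-rich cells, with the marker filter that spares Pecam1 and with the rule read at 1500 UMIs were chosen after seeing the data. Of 12 settings for the share of cells, 10 moved it by less than its interval; it was 1.05 among T cells and 0.72 with the rule read at 1500 UMIs. Genes 2-fold higher numbered 525 with at least 2 Cd4 UMIs, 424 without each gene's top cell, and 78 and 732 with floors of 100 and 10 UMIs; genes lower numbered 215, 123, 130 and 1226 in these settings, 133 with the fixed marker filter, 237 without NK marker cells, 195 without marker-rich cells and 208 with the filter sparing Pecam1. The split of calls, 34.3% higher, was 70.9% with 2 Cd4 UMIs, 68.7% with the fixed filter, 47.2% without Ikzf2 or Il2ra, 54.6% without NK marker cells, 60.2% without marker-rich cells, 60.5% sparing Pecam1 and 77.5% without top cells, a setting that shifts the median of all genes to 0.20. Of 345 list medians, 305 stayed within the exact interval of the main median over the list's genes.

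With at least 2 Cd4 UMIs the list medians were -0.21 (T cell receptor signalling), -0.85 (T helper 1), 0.11 (T helper 17), 0.027 (costimulatory), 0.47 (interferon), 1.70 (cell cycle), -0.044 (hypoxia) and 0.078 (class I). With the fixed marker filter they were -0.084 (receptor signalling), -0.89 (T helper 1), 0.92 (cell cycle), -0.49 (TGF-beta) and 0.070 (class I). Without Ikzf2 or Il2ra UMIs cytokine receptors were at 0.34 and class I at 0.59. Without NK marker cells receptor signalling was at -0.021, costimulatory 0.12 and cell cycle 0.38. Without marker-rich cells receptor signalling was at -0.089, regulatory -0.50, costimulatory 0.024, interferon 0.48, cell cycle 0.23, hypoxia -0.13 and class I 0.12. With the filter sparing Pecam1 receptor signalling was at -0.088, T helper 1 -0.46, regulatory -0.65, costimulatory 0.069 and class I -0.085. As the mean over cells receptor signalling was at -0.028, regulatory -0.47, costimulatory 0.046, cytokine receptors -0.070 and class I 0.11. Without top cells T helper 17 was at 0.12, cytokine receptors 0.31, cell cycle 0.076, immediate early 0.28 and hypoxia -0.097.

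Ratios of single genes that turned were Areg (2.54) and Gzmb (-0.14) without Ikzf2 or Il2ra, Ccl1 (-4.74) sparing Pecam1, Gbp2 (-0.046) and Gzma (-0.94) with the fixed filter, Il1rl1 with 2 Cd4 UMIs (0.23), the fixed filter (0.24) and sparing Pecam1 (0.43), and Top2a with 2 Cd4 UMIs (0.54), without NK marker cells (0.51), without marker-rich cells (0.23) and without top cells (0.30). The cause of each was not tested. The 67 control cells, with 559859 UMIs, limit every ratio.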

Other observations

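Further interferon-regulated genes outside the list, named after their values were seen, lay on the same side. The chemokine gene Cxcl10 had 258 UMIs in 32 K2-KO cells and 25 UMIs in 11 control cells (log2 ratio 1.81, 1.22 to 2.47; 1.95 without the marker-rich cells). Gbp2b was at 198 CPM in K2-KO and 48.2 CPM in control (2.04, 1.47 to 2.66; 1.49 without), Irgm2 at 51.0 and 12.5 CPM (2.03; 1.63 without) and Ddx60, a helicase, at 65.0 and 17.9 CPM (1.86; 1.47 without).

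Tox, a transcription factor of chronically stimulated T cells, was at 576 CPM in K2-KO and 329 CPM in control (0.81, 0.58 to 1.04), but 0.32 without the marker-rich cells, and Pdcd1 was found in 35.6% of Tox-positive K2-KO cells and 47.5% of Tox-positive control cells. Il12rb2, a chain of the interleukin 12 receptor, was at 183 CPM in K2-KO and 246 CPM in control (-0.43; -0.90 without), and Fasl, the death ligand, at 88.1 and 125 CPM (-0.51; -0.90 without). Tgfb1 was at 275 CPM in K2-KO and 388 CPM in control (-0.49; -0.48 without), and the integrin chain gene Itga4 at 395 and 248 CPM (0.67; 0.40 without). Penk, which encodes enkephalins, had 71.0% of its 1218 K2-KO UMIs in 1 cell.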
